A study of Mus musculus and synthetic construct with 32 samples.

Results

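Small nucleolar RNAs (snoRNAs) and small Cajal body RNAs (scaRNAs) were examined in mice without the RNA helicase and m6A reader YTHDC2, as the genes named Snora, Snord or Scarna among the sense exon rows of 4 deposited tables. There were 109 such genes of 22750 measured in any of the tables, namely 34 box H/ACA RNAs (Snora), 66 box C/D RNAs (Snord) and 9 Cajal body RNAs (Scarna). Of them, 106 were listed for P8 testis, 105 for P12 testis, 107 for P0 ovary and 108 in the m6A table, and 105 were listed in all of these. Of the rest, Snora35 was taken from the ovary table alone, Snora36b and Snord14a in the m6A table alone, and Snord38a in all but the P12 table.

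The study sequenced total RNA after removal of ribosomal RNA from 2 knockout testis libraries against 1 heterozygote and 1 wild-type library at P8, from 3 knockout against 3 heterozygote testis libraries at P12, and from 2 knockout against 2 heterozygote ovary libraries at P0. In a separate experiment, polyadenylated testis RNA was fragmented and precipitated with an antibody against N6-methyladenosine (m6A), and at P8 there was 1 immunoprecipitate and 1 input library of wild-type testis. The m6A table also covers libraries of P12 and P20 testes, so its single mean count per gene need not be specific to P8. That mean is taken over immunoprecipitate and input libraries together. All mice were C57BL/6J. Knockouts (Ythdc2 -/-) came from 2 lines made with Cas9, of which line 2 lacks exon 7 and line 1 carries a triple stop codon cassette in that exon; the labels do not say from which line a library came, or whether a library is 1 animal or a pool. The heterozygotes were Ythdc2 +/- and the wild types Ythdc2 +/+.

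Box C/D and box H/ACA RNAs are short nuclear RNAs that pair with ribosomal RNA and direct its ribose methylation and pseudouridylation by the enzymes fibrillarin and dyskerin, and a few act in the cleavage of its precursor. Cajal body RNAs do the same for the RNAs of the spliceosome. In mammals most of them are cut out of introns of protein-coding or long non-coding host genes, many of which encode ribosomal proteins or translation factors, and the mature RNAs carry no poly(A) tail.

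The mature sequences of the RNAs were not analysed here, but 6 of the genes overlap an annotated miRNA hairpin in RefSeq (GRCm38.p6). Of these hairpins, 3 were picked for printing because they show sequence elements after which the classes are named. Box H/ACA RNAs end in the letters ACA followed by 3 bases. The hairpin of Mir664 (chr1:185242975-185243043, + strand) shares 64 of its 69 bases with Snora36b, and that of Mir3069 (chr12:105031077-105031141, - strand) lies with all 65 bases inside Scarna13. In both, the capitals mark the ACA that stands 3 bases before the annotated end of the small RNA.
Mir664: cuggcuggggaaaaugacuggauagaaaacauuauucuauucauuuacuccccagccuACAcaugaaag
Mir3069: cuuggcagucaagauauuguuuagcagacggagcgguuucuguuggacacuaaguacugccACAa
The letters ACA stood at the same distance from the hairpin's end in 0.796% of 1005 mouse hairpins for the Mir664 position and in 6.57% for the Mir3069 position. Hairpins not printed here, Mir1843b in Scarna3a and Mir1843a at Scarna3b, also hold ACA near the annotated end of the small RNA. In neither does it stand 3 bases before that end. The hairpin of Mir5121 (chr7:45126918-45126991, - strand) shares 28 of its 74 bases with Snord33. Its capitals mark the letters UGAUGA, the core of the C box of box C/D RNAs, which begin at base 7 of Snord33 and occur in 2.69% of the 1005 hairpins, searched on the hairpin strand only.
Mir5121: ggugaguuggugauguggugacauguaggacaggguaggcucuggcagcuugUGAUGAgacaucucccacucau

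The tables give 1 mean normalized count per gene and table, with no value per library, and the authors' own log2 fold changes and adjusted p-values; the folds appear drawn toward 0. The summed normalized count of all sense exon rows was 18836300 at P8, 18950000 at P12, 7976120 in the ovary and 18420700 in the m6A table. Ythdc2 itself fell by 1.29 on the log2 scale in P12 knockout testes (adjusted p = 9.87e-25 per the authors' deposited table). In the authors' deposited table its log2 fold was -0.50 over the wild type and -0.24 over the heterozygote at P8 (adjusted p = 1 each), and -0.43 in P0 ovaries (adjusted p = 0.584), so the gene-level counts checked the knockout label at P12 alone. The germ cell gene Ddx4 had mean counts of 2591 at P8, 2711 at P12 and 172 in the ovary, and the ovarian gene Foxl2 had 0.605, 2.87 and 195. The P8 heterozygote library carried more of the spermatid transcript Prm2 than the wild type (log2 fold 0.74, adjusted p = 0.000147 per the authors' deposited table), a stage that testes do not reach at that age, and the wild type therefore serves as the first P8 control below.

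The small RNAs made up 0.0730% of the sense exon count at P8, 0.113% at P12, 0.120% in the ovary and 0.163% in the m6A table. A mean count of at least 10, the floor used for all fold changes here, was reached by 71 of 106 genes at P8, 66 of 105 at P12, 47 of 107 in the ovary and 84 of 108 in the m6A table. A few RNAs held most of the signal: the top 10 accounted for 78.2% of the summed small RNA count at P8, 81.5% at P12 and 84.4% in the ovary, against 66.9% in the m6A table.

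In total RNA, the genes ranked alike in testis and ovary. Snord17, a long box C/D RNA, had mean counts of 1946 at P8, 2783 at P12 and 2004 in the ovary. Snora74a, a box H/ACA RNA, had 1599, 2764 and 1454 in the same order, and the Cajal body RNA Scarna6 had 1405, 2450 and 561. Across the 105 genes in all tables, Spearman's rho of the mean counts was 0.972 between P8 and P12 testis, 0.947 between P8 testis and ovary, and 0.943 between P12 testis and ovary. These are descriptions across genes, and the genes are not independent replicates.

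Since the genes differ in length, their levels were compared per annotated base. The highest counts per base at P12 were those of Scarna10 (34.1), Scarna2 (26.2), Scarna9 (17.0), Snora74a (14.0) and Snord17 (12.6). RefSeq gives only 71 bases for Scarna10, 61 for Scarna2 and 42 for Scarna9, and no source used here gives the spans over which the authors counted, so these 3 values may be too high. By class, the median count per base at P12 was 0.511 for 32 box H/ACA RNAs, 0.148 for 64 box C/D RNAs and 3.45 for 9 Cajal body RNAs. P8 testis had class medians of 0.353, 0.164 and 2.58 in that order, and P0 ovary 0.166, 0.0642 and 2.26.

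The m6A libraries read another set of these RNAs. There, the highest counts per base belonged to box C/D RNAs alone, with Snord49a at 61.0, Snord82 at 57.5, Snord2 at 56.5, Snord32a at 21.9 and Snord49b at 20.9. The median count per base was 1.56 for 66 box C/D RNAs, against 0.0914 for 33 box H/ACA RNAs and 0.0855 for 9 Cajal body RNAs. Box C/D RNAs held 93.6% of the small RNA count in the m6A table, against 36.6% at P8, 30.4% at P12 and 38.4% in the ovary. Spearman's rho of the m6A mean counts with those of the total RNA tables was 0.0972 for P8, 0.0508 for P12 and 0.0163 for the ovary.

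**Figure D1:**
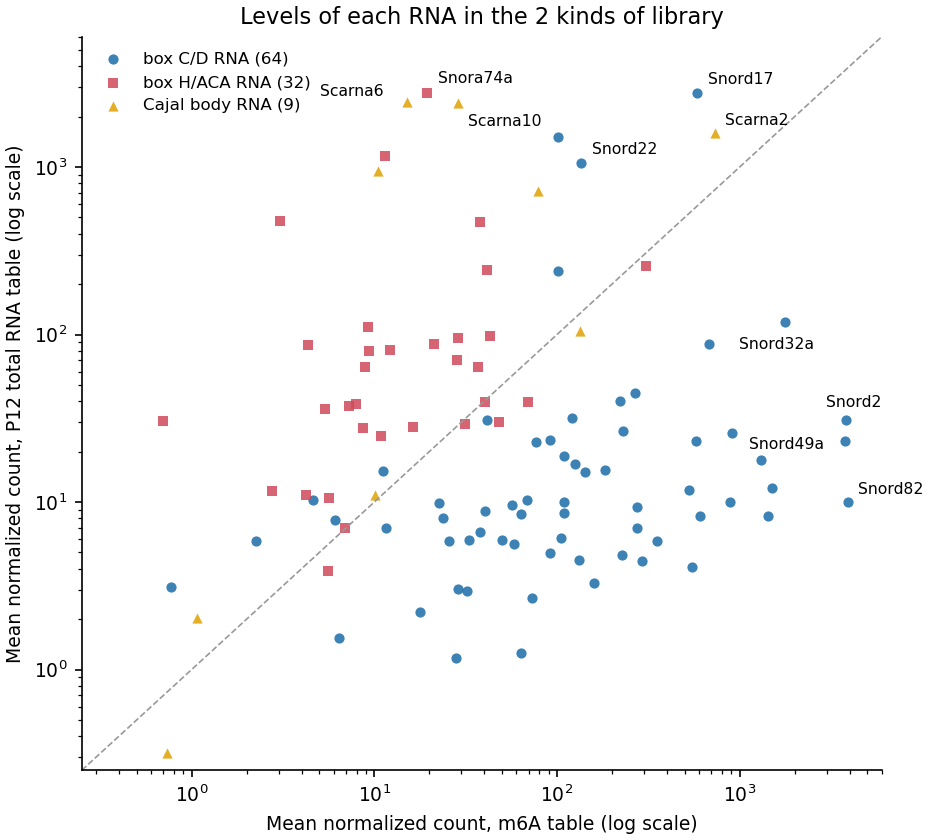
Mean normalized count of each of 105 RNAs in the m6A table (x axis) and the P12 total RNA table (y axis), both on log scales, coloured by class; the dashed line marks equal counts. Box C/D RNAs such as Snord82 (3907 and 10.02) lie at the lower right and RNAs such as Scarna6 (15.2 and 2450) at the upper left.

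Single genes show how far the tables differed, with the caution that they were normalized separately. Snord82, whose gene lies in an intron of the nucleolin gene Ncl, had a mean count of 3907 in the m6A table and 12.9, 10.02 and 7.04 at P8, at P12 and in the ovary. Snord2, in an intron of the translation factor gene Eif4a2, had 3843 in the m6A table and 38.6, 31.0 and 16.7 in total RNA. Scarna6 went the other way, with 15.2 in the m6A table against 1405 at P8 and 2450 at P12, as did Snora74a, with 19.5 against 1599 and 2764, and Snora23, with 3.04 against 308 and 476. The m6A and P12 counts were compared for 97 RNAs listed in both tables with a mean count of at least 10 in either. The m6A count was higher for 54 of 60 box C/D RNAs, 5 of 30 box H/ACA RNAs and 1 of 7 Cajal body RNAs. RNAs that reached 10 in 1 of these tables alone could only be higher there, so the floor itself set part of this contrast. Among all listed RNAs, 29 box C/D, 30 box H/ACA and 7 Cajal body RNAs reached 10 at P12. For the m6A counts these numbers were 60, 17 and 7.

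Annotated length differed between the classes. The lengths are those of RefSeq, which may be too short for Scarna10, Scarna2 and Scarna9. The median length was 68 bases for box C/D RNAs (range 28 to 221), 119.5 for box H/ACA RNAs (61 to 198) and 118 for Cajal body RNAs (42 to 275). RNAs below 80 bases had a median mean count of 123 in the m6A table, against 11.2 at 80 to 120 bases and 20.4 at 120 bases or more. At P12 the medians were 8.64, 24.2 and 91.4, so RNAs below 80 bases had the highest of the 3 medians in the m6A table and the lowest at P12. Spearman's rho of length and mean count over all listed RNAs was -0.417 in the m6A table and 0.504, 0.552 and 0.513 at P8, at P12 and in the ovary. Within box C/D RNAs it was -0.0687 in the m6A table and 0.442 at P12, and within box H/ACA RNAs 0.190 and 0.403. In the m6A table it was thus near 0 within box C/D RNAs and positive within box H/ACA RNAs. Cajal body RNAs were not examined alone. The m6A libraries were made with a small RNA kit and the total RNA libraries with a stranded total RNA kit, per the labels' protocols. Part of the m6A libraries were also immunoprecipitates, and they enter the mean counts. The kit, the poly(A) selection, the fragmentation and the immunoprecipitation cannot be told apart here.

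**Figure D2:**
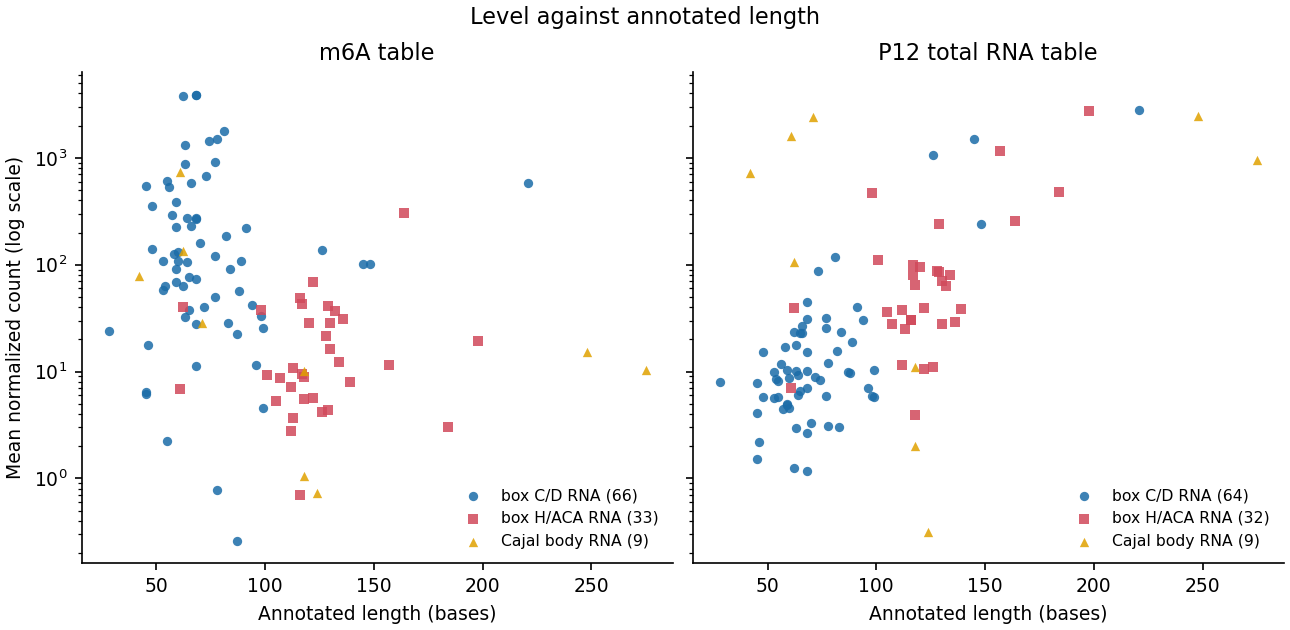
Mean normalized count (log scale) against the annotated RefSeq length in bases for each RNA in the m6A table (left) and the P12 total RNA table (right), coloured by class. Box C/D RNAs, with a median length of 68 bases, have the highest class median in the m6A table (109) and the lowest at P12 (9.48), although Snord17 has the highest single count at P12 (2783).

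Reads over a small RNA can come from the mature RNA or from the host's unspliced intron. The count per base of each small RNA was therefore divided by the intron count of its host per base of the whole host gene. That length includes the exons, so the ratios to the introns themselves would be lower. The small RNA lengths are those of RefSeq, so the values of Scarna9 and Scarna10, and with them the Cajal body medians, may be too high. In the m6A table the median ratio was 44.9 for 53 box C/D RNAs, 6.97 for 31 box H/ACA RNAs and 19.5 for 6 Cajal body RNAs. In P12 total RNA the medians were 2.46 for 51 box C/D RNAs, 7.35 for 30 box H/ACA RNAs and 55.7 for 6 Cajal body RNAs, and 8 of the 51 box C/D RNAs were below 1. The total RNA counts per base of many box C/D RNAs were thus at most a few fold above this host value. Intron reads and mature RNA cannot be told apart in them. Rows on the antisense strand of the genes held 0.309% of the sense and antisense count at P8, 0.177% at P12, 0.185% in the ovary and 0.0542% in the m6A table.

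The 6 hairpins that overlap a small RNA had rows of their own. In total RNA, each of the 5 whose small RNA was listed there had a higher mean count than the row of that small RNA. The Mir3069 hairpin had mean counts of 814 at P8 and 1680 at P12, against 709 and 947 for Scarna13, although its sequence printed above lies inside that RNA. The Mir5121 hairpin had 128 at P8 and 193 at P12, against 16.2 and 15.5 for Snord33, but in the m6A table it had 26.0, against 184 for Snord33. The Mir1843b hairpin had 119.4 at P12, against 2.03 for Scarna3a, which holds all 66 of its bases. No source used here says how reads that fit both rows were assigned or whether hairpins were normalized with the genes, so the counts of these 6 small RNAs are uncertain, and none of the hairpins was called in a knockout comparison.

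Knockout and heterozygote testes at P12 formed the comparison with the most libraries. None of 66 small RNAs was called at the authors' adjusted p below 0.05, where 0.881% of all 15558 tested genes were (DESeq2 per the submitters' processing notes; unadjusted p-values are not in the tables). The smallest adjusted p among them was 0.808. Their log2 folds in the authors' deposited table ran from -0.14 to 0.24, with a median of 0.04 beside 0.01 for all genes, and 47 of 66 were above 0, as were 8137 of all 15608 genes. The highest were Snora81 with 0.24 (adjusted p = 0.851), Snora74a with 0.21 (adjusted p = 0.808) and Snora23 with 0.20 (adjusted p = 0.917) per the authors' deposited table. The lowest were Snora17 with -0.14, Snord66 with -0.13 and Snora78 with -0.12 in the same table. By class, the median log2 fold was 0.06 for 30 box H/ACA RNAs, 0.04 for 29 box C/D RNAs and 0.07 for 7 Cajal body RNAs.

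For scale, the smallest called fold among other genes was 0.43 in size at mean counts of 10 to 30 and 0.38 above 1000 in the authors' deposited table. All small RNA folds at P12 were below these sizes, and 65 of 66 lay between the 5th and the 95th percentile of all genes, which were -0.25 and 0.22. Of 13 cell markers with a mean count of at least 10 at P12, 1 was called lower, 1 higher and 11 neither. The meiotic gene Sycp3 fell by 0.66 (adjusted p = 0.00407) and the Leydig cell gene Cyp17a1 rose by 0.76 (adjusted p = 0.000122) on the log2 scale per the authors' deposited table. Markers not called included the germ cell genes Dazl with 0.03 and Ddx4 with -0.12, and the Leydig cell gene Star with 0.25. In whole tissue, fewer cells of a type and less RNA per cell cannot be told apart, and the part of cell makeup in the small RNA folds was not tested.

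At P8, none of 71 small RNAs was called in the 2 knockout libraries over the wild type, where 0.0449% of 15592 tested genes were, or over the heterozygote, where 0.0577% were; all adjusted p-values of the RNAs were 1. The median log2 fold in the authors' deposited table was -0.003 over the wild type and 0.004 over the heterozygote, and these comparisons share the knockout libraries. Snord22, from the long non-coding host Snhg1, had the highest fold in each, 0.26 over the wild type and 0.29 over the heterozygote in the authors' deposited table. Snord17 had 0.15 and 0.22, and Snord15b had 0.12 and 0.25, in the same table. The lowest over the wild type was Scarna10 with -0.16, which had -0.03 over the heterozygote. Between the control libraries, heterozygote over wild type, the folds of the 71 RNAs ran from -0.14 to 0.07 in the authors' deposited table, with none called and 0.0128% of all genes called.

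In P0 ovaries, none of 47 small RNAs was called in the knockout over the heterozygote, where 0.548% of 14606 tested genes were, and all adjusted p-values rounded to 1.00. Their log2 folds in the authors' deposited table ran from -0.21 for Snora68 to 0.18 for Snord104, with a median of -0.02 beside 0.005 for all genes, and 32 of 47 were below 0, as were 48.2% of all genes. The next lowest were Scarna2 and Snora81 with -0.19 each, and the next highest Snora30 and Snord89 with 0.07 each, in the authors' deposited table. Snora81 had the highest fold at P12. Of 6 Cajal body RNAs 5 were below 0, among them Scarna13 with -0.17, Scarna17 with -0.16 and Scarna10 with -0.11, and the median of the 6 was -0.14. The oocyte genes Nobox and Figla were called lower and had log2 folds of -1.79 (adjusted p = 1.72e-22) and -1.41 (adjusted p = 4.20e-14) in the same table, and whether that bears on the small RNA folds was not tested. Of 47 RNAs with a mean count of at least 10 in all 3 total RNA tables, 36 had mixed signs over the 3 tissues and ages (knockout over wild type at P8), 6 were above 0 in each (Snora28, Snora30, Snora31, Snora65, Snord100 and Snord17) and 5 below 0 in each (Scarna13, Scarna17, Snora21, Snora78 and Snord2).

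**Figure D3:**
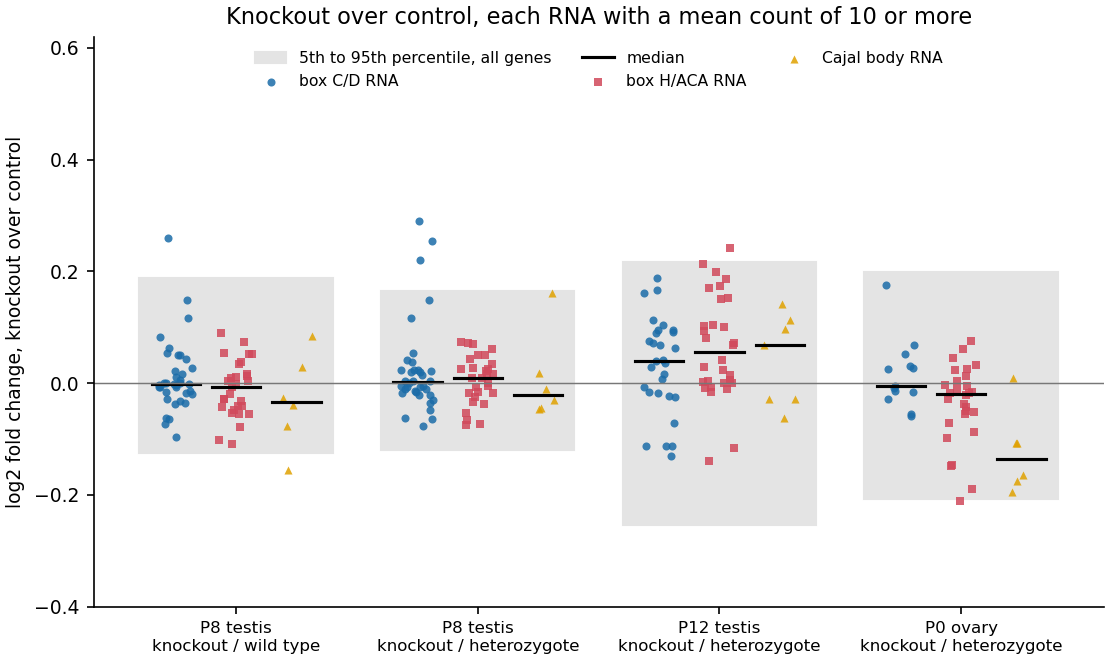
Authors' log2 fold change of knockout over control for each RNA with a mean count of at least 10, by class, in 4 comparisons; black bars are class medians and grey boxes span the 5th to 95th percentile of all genes. At P12 65 of 66 RNAs lie inside the grey box, and in the ovary 46 of 47.

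The m6A immunoprecipitate gave a different picture. At P8, 51 of 77 small RNAs with an adjusted p were lower in the immunoprecipitate than in the input and none was higher, where 26.3% of 15807 tested genes were called lower and 26.9% higher. The median log2 fold of the 84 RNAs with a mean count of at least 10 was -1.96 in the authors' deposited table, beside -0.01 for all 16399 genes, and 81 of 84 were below 0, as were 50.4% of all genes. A log2 fold of -1 or below was found for 64 of 84 RNAs and for 19.5% of all genes. This comparison rests on 1 library each and has no replicate check, so its adjusted p-values compare these libraries.

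The small RNAs stood at the very low end of the whole table. Of the 10 lowest folds among 16399 genes, 8 belonged to them, and of the 100 lowest, 34 did, while they made up 0.512% of the genes. The lowest of all was Snord52 with -4.41 (adjusted p = 2.58e-09, mean count 91.9), followed by Scarna2 with -4.20 (adjusted p = 4.32e-24, mean count 731), Snord72 with -4.06 (adjusted p = 2.03e-09) and Snord111 with -3.94 (adjusted p = 2.43e-14) per the authors' deposited table. Scarna2 is transcribed from a gene of its own rather than from an intron, and RefSeq places it in no host. Snord4a and Snord42b, which share the host Rpl23a, came next with -3.88 (adjusted p = 2.12e-10) and -3.75 (adjusted p = 8.43e-18) per the authors' deposited table. Snora21 with -3.50 (adjusted p = 0.00254) and Snora28 with -3.23 (adjusted p = 9.96e-06) were the lowest box H/ACA RNAs in that table.

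Each class went the same way. Among RNAs with an adjusted p, 39 of 58 box C/D, 9 of 14 box H/ACA and 3 of 5 Cajal body RNAs were called lower. Over all RNAs with a mean count of at least 10, with or without an adjusted p, the median log2 fold in the authors' deposited table was -2.13 for 60 box C/D RNAs, -1.80 for 17 box H/ACA RNAs and -0.71 for 7 Cajal body RNAs. Among the 51 called RNAs, 11 had a log2 fold of -3 or below, 30 lay between -3 and -2, 9 between -2 and -1, and Snord100 alone was smaller in size, at -0.96 (adjusted p = 0.0346) per the authors' deposited table.

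The difference from other genes was present at each level of count. At mean counts of 10 to 30, 5 of 13 small RNAs were called lower, where 0.582% of 1202 other genes were. At 30 to 100 the numbers were 16 of 24, where 5.86% of 2117 others were, at 100 to 300 16 of 21, where 21% of 2499 others were, and at 300 to 1000 10 of 12, where 33.2% of 4402 others were. Above 1000, 4 of 7 were called lower, where 36.1% of 5510 others were. The median log2 folds of the small RNAs in these bands were -1.56, -2.12, -2.65, -1.69 and -1.70 in the authors' deposited table, beside 0.08, 0.16, -0.05, -0.12 and -0.02 for the other genes.

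Abundant RNAs that were not called included several of those with the most reads. Snord82 had a log2 fold of 1.00 (adjusted p = 0.103), the highest of all small RNAs, at a mean count of 3907 in the authors' deposited table. Snord49a had -1.12 (adjusted p = 0.102), Snord32a -0.40 (adjusted p = 0.327) and Snord83b -0.94 (adjusted p = 0.195) in that table. Snord22 with -0.23 (adjusted p = 0.722) and Snord66 with -0.02 (adjusted p = 0.974) lay near 0, as did Snora75 with 0.02 (adjusted p = 0.989), in the authors' deposited table. Snord17, the most abundant box C/D RNA of total RNA, was by contrast among those called lower, at -2.89, and so was Snord2, at -2.21, in the same table.

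**Figure D4:**
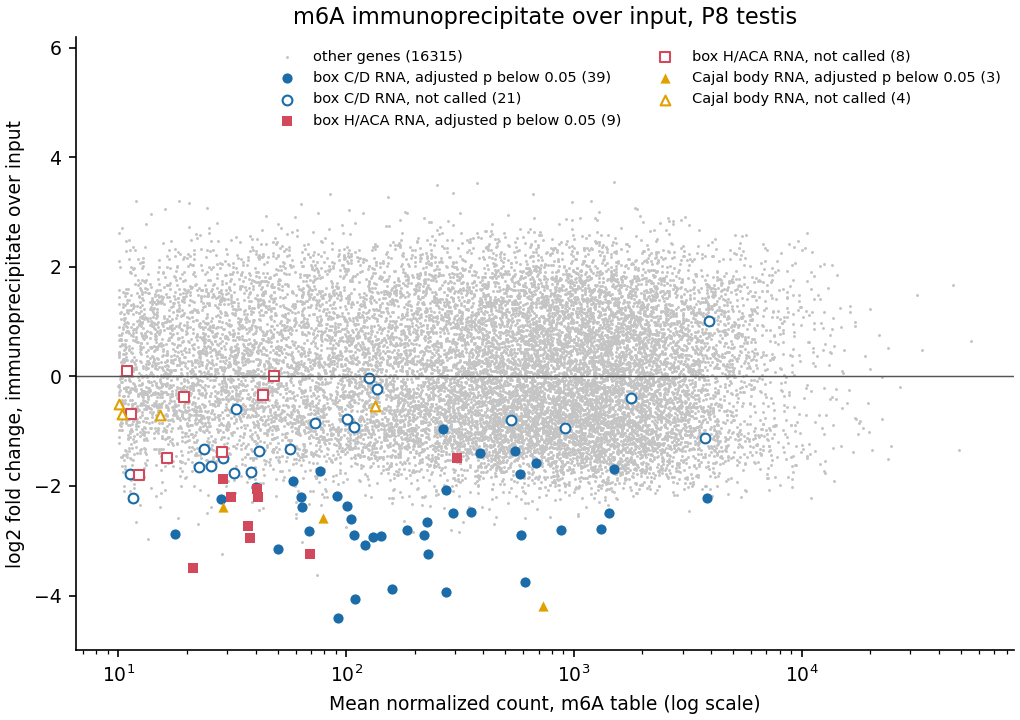
Authors' log2 fold change of the m6A immunoprecipitate over input at P8 against the mean normalized count of the m6A table (log scale), for genes with a mean count of at least 10. Filled symbols are small RNAs with an adjusted p below 0.05 (51), open symbols those not called, and grey points other genes; 81 of 84 small RNAs lie below 0.

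RefSeq places 99 of the 109 genes inside exactly 1 other gene, 8 inside more than 1 and 2 (Snord89 and Scarna2) in none. The 99 fell in 74 hosts, of which 19 held 2 or more small RNAs; 32 of the 99 lay in ribosomal protein genes, 21 in long non-coding RNA genes and 46 in other protein-coding genes. Hosts were assigned by position without strand. Small RNAs of 1 host can start out in the same transcript and were not taken as independent. Host and small RNA were both measured at a mean count of at least 10 in the m6A table for 71 RNAs in 51 hosts. The small RNAs had a median log2 fold of -1.91 and the exons of their hosts -0.94 in the authors' deposited table. The small RNA was below its host in 56 of 71 pairs, with a median difference of -0.98 on the log2 scale. Of the 51 hosts, 30 were called lower and 4 higher, where 26.3% of all tested genes were called lower and 26.9% higher.

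The small RNA was below its host in 21 of 26 pairs with ribosomal protein genes, 27 of 31 with other protein-coding genes and 8 of 14 with long non-coding RNA genes. For 26 small RNAs in ribosomal protein genes the medians were -1.83 for the small RNAs and -0.82 for the hosts, and 11 of their 18 hosts were called lower and none higher. For 31 in other protein-coding genes they were -2.01 and -0.94, and for 14 in long non-coding RNA genes -1.72 and -1.52, in the authors' deposited table. Spearman's rho between the fold of small RNA and host was 0.139 over the 71 pairs. The 4 hosts called higher held 5 small RNAs, all with folds below 0: 2410002F23Rik had 1.79 (adjusted p = 1.34e-20) while its Snord88c had -2.18 and Snord88a -2.01, and Snhg14 had 1.58 (adjusted p = 7.27e-07) while its Snord64 had -2.87 in the authors' deposited table.

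In some hosts the small RNAs also differed among themselves. The hosts below were picked from the 19 with 2 or more small RNAs after the values were seen. In others the RNAs lay closer together, as in Nop56, with -2.81 for Snord57 and -2.65 for Snord110. Rpl13a, which encodes a ribosomal protein, had an exon fold of -0.01, and the RNAs from its introns had -2.90 for Snord35a, -2.80 for Snord33, -1.79 for Snord34 and -0.40 for Snord32a in the authors' deposited table. Their mean counts in the m6A table stood in the same order, with 109, 184, 580 and 1775. The immunoprecipitates enter these means, so count and fold are not independent. In the next 2 hosts the order did not hold: Snord42b had 610 and Snord42a 550, and Snord49b had 1315 and Snord65 294. Rpl23a had an exon fold of -0.09, with -3.88 for Snord4a and -3.75 for Snord42b but -1.37 for Snord42a in that table. In 2410006H16Rik, with -1.57, Snord49b had -2.78 and Snord65 -2.49, while Snord49a had -1.12. In Rps3, with -1.08, Snord15b had -2.37 and Snord15a -0.78 at almost equal mean counts of 101.1 and 100.8. In Ncl, with 0.19, Snord82 had 1.00 and Snora75 0.02 in the authors' deposited table. The differences between RNAs of 1 host were not tested, since the tables hold no values per library.

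**Figure D5:**
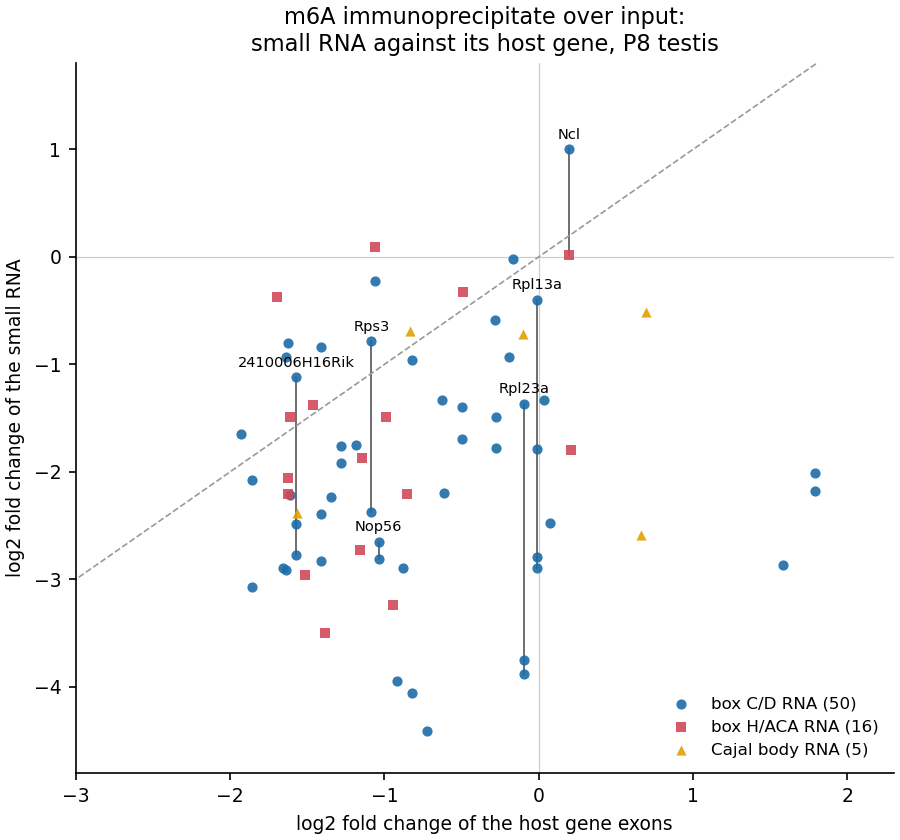
Authors' log2 fold change of the m6A immunoprecipitate over input at P8 for each of 71 small RNAs (y axis) against the exons of its host gene (x axis), coloured by class; the dashed line marks equal folds and vertical lines join RNAs of 1 host. The small RNA lies below its host in 56 of 71 pairs.

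In the knockout comparisons the hosts that could be paired with a small RNA were not called either. The exons of Rps3a1, host of Snord73a, rose by 0.41 at P12 (adjusted p = 0.00805 per the authors' deposited table), but Snord73a itself was below a mean count of 10 there. Snx5, host of Snord17, had a log2 fold of 0.35 (adjusted p = 0.0782) and Snord17 0.07 in P12 knockout testes in the authors' deposited table. Snhg4, host of Snora74a, had 0.31 (adjusted p = 0.678) and Snora74a 0.21 in the same table.

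The genes that build and guide these particles were also read. Of 5 core proteins of box C/D particles, 6 of box H/ACA particles, 7 assembly factors, 8 genes listed for the Cajal body and 21 listed for host transcripts, none was called in a knockout comparison. In the m6A comparison, where 26.3% of all tested genes were called lower and 26.9% higher, all 5 box C/D proteins were lower, among them Nop58 with -1.28 (adjusted p = 9.45e-09) and the methyltransferase Fbl with -1.09 (adjusted p = 5.98e-05) per the authors' deposited table. Of the 6 box H/ACA proteins 3 were lower and none higher, with the pseudouridine synthase Dkc1 at -1.34 (adjusted p = 6.26e-07). Of the 7 assembly factors 4 were lower and Nufip1 was higher, at 1.25 (adjusted p = 1.05e-07 per the authors' deposited table). Of the 8 genes listed for the Cajal body 4 were higher and 1 lower, led by Lsm10 at 1.69 (adjusted p = 5.20e-07) and Nolc1 at 1.06 (adjusted p = 7.23e-06) in that table. Of the 21 genes listed for host transcripts 9 were lower, among them Gas5 at -1.46 (adjusted p = 4.93e-07), and 3 were higher in the authors' deposited table. Those higher include Usp54, which is not an established Cajal body component, and the protein-coding gene Ube3a; without these, 3 of 7 and 2 of 20 were higher. These groups are small, and none was tested against all genes.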

How the data were processed

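The authors deposited 1 table per experiment, with a mean normalized count per feature (a signal, 1 value per table), a log2 fold change and an adjusted p-value per comparison, per the file headers. The submitters' processing notes name DESeq2 and mm10; no source used here gives the aligner, the counting rules or the annotation. For total RNA at P8 and P12, column headers mention IP and input, and such columns were read as knockout over control. Planned fits per library could not be made, so the authors' adjusted p, with 0.05 as threshold, was used. No SD, replicate check or unadjusted p can be given, and depth per library is unknown. Labels do not state that libraries came from separate animals, so p-values measure at most the spread between libraries. At P8 the m6A immunoprecipitate, its input, the heterozygote and the wild type had 1 library each. These groups have no spread of their own behind the adjusted p-values.

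In the m6A table, the P12 and P20 columns are sorted apart from the gene names (Spearman's rho of exon and intron folds 0.0045 and -0.0064, against 0.207 at P8) and were not used. RNA Bind-N-Seq files were not used.

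Sense exon rows named Snora, Snord or Scarna were taken, and folds described at a mean count of at least 10. The rule named, per table, each called RNA, the 3 highest and 3 lowest folds, the 8 RNAs of highest count and a list of well-known RNAs. It was followed in part. RNAs called in the m6A table are named only in part and counted by size. Those of lowest fold at P8, of highest fold in the m6A table and of highest count are also named only in part. RNAs of multi-gene hosts were picked after their values were seen. Of the well-known list Snord3a, Snord118, Snord13, Snord14b to Snord14e, Snora73a, Snora73b and the Snord115 and Snord116 clusters were not analysed here. Positions, lengths, hosts (by containment, without strand) and hairpins came from RefSeq GRCm38.p6, where all 109 names matched. Members and lists were chosen with earlier results of these data known. Summaries used Python 3.11.15, pandas 2.3.3 and SciPy 1.17.1. Only the counting of tested and called genes was checked on simulated data.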

Additional observations from a re-analysis of the deposited data

How the results depend on the processing

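Of 23 alternatives over 8 results, 21 left a count of called RNAs within 1.5-fold, or a median within 0.1, of its main value. By this rule 43 or 64 called RNAs in place of 51 counted as unchanged. The 2 that moved were of the median m6A log2 fold, which was -1.96 with the floor of 10, -1.72 with no floor on the mean count and -2.38 at a mean count of at least 50. The count of RNAs called lower in the m6A immunoprecipitate was 51, and it was 56 at an adjusted p below 0.1, 43 below 0.01, 51 with no floor and 64 with a log2 fold of -1 or below in place of the adjusted p, a rule chosen after seeing the data. No RNA was called in any knockout comparison under any threshold or floor tried. The P8 median of -0.003 became 0.004 at a mean count of at least 50 and 0.004 with the heterozygote as control, and the ovary median of -0.02 became -0.08 at a mean count of at least 50. No paired analysis was possible because the tables hold no values per library. Leaving out a replicate and another normalization were not run for the same reason. Folds drawn toward 0 limit what low counts can show, and 31 of 108 RNAs had no adjusted p in the m6A table.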

Other observations

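Other short non-coding RNAs read by the same libraries were compared in the same way in the m6A immunoprecipitate at P8. Among sense exon rows of miRNA genes, 4 had a mean count of at least 10. Their log2 folds ran from -2.70 to 0.98, with 3 below 0 and 1 above. The values that follow leave miRNA genes out. Of 7 with a mean count of at least 10, 3 were called lower and none higher, where 26.3% of all tested genes were called lower and 26.9% higher, and all 7 had folds below 0, with a median of -1.02. The vault RNA gene Vaultrc5 had a log2 fold of -3.25 (adjusted p = 0.00192), the RNase P RNA gene Rpph1 -1.52 (adjusted p = 0.00168) and the RNase MRP RNA gene Rmrp -1.02 (adjusted p = 0.0135) per the authors' deposited table. The telomerase RNA gene Terc, itself a box H/ACA RNA by structure, had -1.83 (adjusted p = 0.0960) in that table. None of these genes was called in a knockout comparison. In P0 ovary, all 6 with a mean count of at least 10 had folds below 0 in the knockout over the heterozygote, with a median of -0.16, in P12 testis 4 of 7 did, with a median of -0.02, and in P8 testis all 7 were above 0 over the wild type, with a median of 0.13; these differences were not tested.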
